A study of Mus musculus with 3 samples.

Results

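The MHC and antigen presentation genes are the members of the mouse H2 complex and the genes that load, transport or regulate MHC molecules. They were taken by name: probe sets whose gene symbol starts with H2-, those shared between H2 genes included, and those of B2m, Tap1, Tap2, Tapbp, Cd74, Ciita, Nlrc5, Rfx5, Rfxap, Rfxank, Cd1d1, Calr and Pdia3. This gave 86 of 45101 probe sets. They name 46 of 18829 entries, where an entry is a gene or a set of genes that share a probe set: 36 single genes and 10 shared sets. By class these are 22 class I heavy chain entries, 11 class II entries (Cd74 included), 6 entries for B2m and class I loading, 5 regulators, Cd1d1, and H2-Ke6, which lies in the complex but belongs to neither class. The rule uses names only, but it was set with earlier results of these data known. The brightest probe set, by the mean of the 3 arrays, represents each member.

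Signals came from 3 Affymetrix arrays of LSK cells, the lineage-negative, Sca-1-positive, Kit-positive fraction of mouse bone marrow that holds blood stem cells and multipotent progenitors. There was 1 array each for cells lacking both p53 and Mef (DKO, labelled P53 KO/MEF KO), cells lacking p53 (p53 KO) and WT cells. Both knockout samples thus share the loss of p53, and both are compared with the same WT array. The strain, age, number of animals and H2 haplotype behind each array are unstated in the sources used here. With 1 array per genotype there was no replicate, so each difference is between single arrays and carries neither an error nor a test.

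Signals are linear intensities as deposited, and each array had a mean of 500 once 2% of its values were trimmed at each end. Median signal over all probe sets was 129 on DKO, 105 on p53 KO and 98.0 on WT. Before log2 was taken, lower values were raised to a floor of 110.4, the median over every probe set and array. A gene is called measured when it reached the floor on 1 array or more, and where 1 of the arrays compared lies under it, the difference is a bound. A difference is the log2 signal on the first-named array minus that on the second, and a call means at least 2-fold. Mef is encoded by Elf4, whose probe sets read 151 and 129 on DKO, 182 and 173 on p53 KO and 57.4 and 74.3 on WT. The sources used here do not say whether these lie in the deleted part, so the DKO array is identified by its label. The level of p53 was not analysed here.

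MHC class I molecules pair a polymorphic heavy chain with beta-2 microglobulin and show peptides of the cell's own proteins to CD8 T cells; most nucleated cells carry them. Peptides cut by the proteasome enter the endoplasmic reticulum through the Tap1/Tap2 transporter and are loaded with the help of tapasin, calreticulin and the disulphide isomerase Pdia3. Class II molecules pair alpha and beta chains, are escorted by the invariant chain Cd74, exchange peptide with the help of DM under the control of DO, and are carried mainly by B cells, dendritic cells and macrophages. NLRC5 and CIITA are the master activators of class I and class II genes. Both act through promoter elements called the X and Y boxes, bound by the RFX proteins and NF-Y. Inbred mouse strains carry different alleles of the classical genes.

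Promoters of representative members are shown because such elements are known to control MHC genes, and because the class II chain genes and the Q region genes are described as groups below. The 150 bases before the RefSeq start are printed 5' to 3' on the gene's strand (RefSeq, GRCm38.p6). Capitals mark matches, on either strand, to the Y box core ATTGG, the X box core AGCAAC, the interferon response motif (GAAA, any 2 bases, GAAA), the CRE core TGACG that many MHC promoters hold beside the X box, and the kappa B core GGATTCC. The last pair of motifs was added after the sequences were seen. Adjacent capitals in H2-Aa are a pair of overlapping CRE core matches on opposite strands.
H2-Aa (class II alpha chain, chr17:34287824-34287973, minus strand): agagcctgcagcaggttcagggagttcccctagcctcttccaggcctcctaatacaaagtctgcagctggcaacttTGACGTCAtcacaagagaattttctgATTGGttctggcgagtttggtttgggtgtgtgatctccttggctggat
H2-Eb1 (class II beta chain, chr17:34305717-34305866, plus strand): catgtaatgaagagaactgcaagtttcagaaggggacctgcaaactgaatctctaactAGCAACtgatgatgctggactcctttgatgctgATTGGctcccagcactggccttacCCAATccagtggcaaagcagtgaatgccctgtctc
H2-K1 (classical class I, chr17:34000334-34000483, minus strand): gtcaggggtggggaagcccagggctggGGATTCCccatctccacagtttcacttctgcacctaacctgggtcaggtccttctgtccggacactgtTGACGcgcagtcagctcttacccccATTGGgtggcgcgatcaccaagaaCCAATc
H2-D1 (classical class I, chr17:35262944-35263093, plus strand): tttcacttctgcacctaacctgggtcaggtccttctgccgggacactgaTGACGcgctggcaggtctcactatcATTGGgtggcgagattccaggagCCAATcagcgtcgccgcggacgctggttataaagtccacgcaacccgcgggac
H2-Q7 (non-classical class I, chr17:35439005-35439154, plus strand): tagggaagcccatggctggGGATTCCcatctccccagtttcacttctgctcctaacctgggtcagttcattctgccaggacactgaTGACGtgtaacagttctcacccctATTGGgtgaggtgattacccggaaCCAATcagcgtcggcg
H2-T23 (non-classical class I, chr17:36032702-36032851, minus strand): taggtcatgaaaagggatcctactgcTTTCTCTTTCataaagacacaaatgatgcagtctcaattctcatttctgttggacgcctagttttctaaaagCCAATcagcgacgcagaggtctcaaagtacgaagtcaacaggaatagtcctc
B2m (beta-2 microglobulin, chr2:122147537-122147686, plus strand): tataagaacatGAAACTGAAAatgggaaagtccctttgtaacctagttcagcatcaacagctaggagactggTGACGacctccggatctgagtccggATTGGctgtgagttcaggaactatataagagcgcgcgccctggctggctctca

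Of 47 member genes, 30 had a promoter in the RefSeq table, from which Cd74 was left out. For each gene the first listed start was counted. The H2-K1 window printed is that of its second listed start, which holds 2 Y box cores, and the one counted holds 1. The Y box core stood in this window in 7 of 8 class II genes and 12 of 14 class I heavy chain genes, against 24.5% of all 32851 promoters. The X box core stood in 4 of 8 class II genes (H2-Eb1, H2-Eb2, H2-Oa and H2-Ob) and in 0 of 14 class I heavy chain genes, against 7.75% of all. The CRE core was found in 7 of 14 class I heavy chain genes and in 1 of 8 class II genes, against 13.3%. H2-K1 and H2-Q7 held the kappa B core, which 1.77% of all promoters hold. H2-T23 and B2m held the interferon response motif, found in 1.59% of all. A match describes the letters and is not evidence of binding. Only exact matches to these short cores were counted, so a promoter without a match may still hold a variant of the element.

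A group of 4 class II entries was higher on the p53 KO array than on both others. H2-Aa and H2-Ab1, the alpha and beta chains of I-A, H2-Eb1, the I-E beta chain, and the invariant chain Cd74 were 1.49-fold to 2.32-fold above WT. On DKO the same entries were within 1.27-fold of WT. The remaining chains, H2-Ea and H2-Eb2, were near the floor, did not share that order and are given apart. The group was set with earlier results of these data known. Its shared order is thus in part a product of that choice and is description only. H2-Aa, Cd74 and B2m, the genes that mark antigen presentation, all read above the floor on every array.

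Cd74 had signals of 647 on DKO, 1438 on p53 KO and 618 on WT. It was thus highest on p53 KO, with log2 differences of 0.06 for DKO against WT, 1.22 for p53 KO against WT and, between both knockouts, -1.15 for DKO against p53 KO. H2-Aa had signals of 4028 on DKO, 7209 on p53 KO and 3938 on WT, which gave 0.03 for DKO against WT, 0.87 for p53 KO against WT and, between both knockouts, -0.84 for DKO against p53 KO. Its 3 other probe sets also read higher on p53 KO than on WT, by 0.97 to 1.60, but ranged on DKO against WT from -0.18 to 1.19. For DKO against p53 KO 3 of the 4 were lower and 1 was higher (0.05). H2-Ab1 had signals of 634 on DKO, 1196 on p53 KO and 803 on WT, or -0.34, 0.58 and -0.92 for the comparisons in the same order. A dimmer H2-Ab1 probe set had the same signs at -0.10, 0.49 and -0.59. H2-Eb1 had signals of 705 on DKO, 1067 on p53 KO and 690 on WT, or 0.03, 0.63 and -0.60. By their brightest probe sets all 4 entries had p53 KO above both other arrays, while DKO and WT lay close together. The median of these 4 was 0.03 for DKO against WT, 0.75 for p53 KO against WT and, between both knockouts, -0.88 for DKO against p53 KO. Over all 11 class II entries the medians were 0.06, 0.47 and 0.00. Over 13022 measured entries of the whole array the medians were 0.06, 0.00 and 0.11. The median of 0.03 turned sign when the arrays were rescaled to a common median (-0.36), a setting that put the median of all entries at -0.26. Differences that involve DKO are therefore to be read against that shift.

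**Figure D1:**
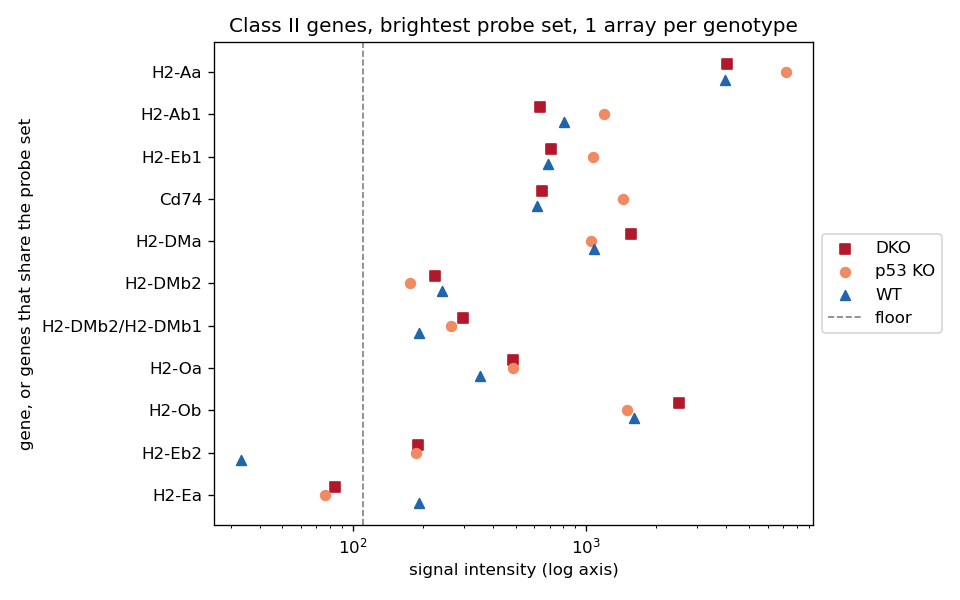
Signal intensity (log axis) of each class II entry on the DKO (square), p53 KO (circle) and WT (triangle) arrays, with the floor of 110.4 as a dashed line. For H2-Aa, H2-Ab1, H2-Eb1 and Cd74 the p53 KO circle lies to the right of both other symbols, and for H2-DMa and H2-Ob the DKO square does.

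By their brightest probe sets the peptide exchange chains did not share that order. H2-DMa, the alpha chain of the exchange catalyst DM, had signals of 1564 on DKO, 1055 on p53 KO and 1080 on WT, and H2-Ob, the beta chain of its inhibitor DO, had 2495 on DKO, 1497 on p53 KO and 1606 on WT. Both were highest on DKO, at 0.53 and 0.64 against WT and at 0.57 and 0.74 against p53 KO, and were close to WT on p53 KO (-0.03 and -0.10). H2-Oa, the DO alpha chain, read 487 on DKO, 489 on p53 KO and 352 on WT, so it was slightly higher on both knockout arrays (0.47 each). The probe set shared by H2-DMb1 and H2-DMb2 read 296 on DKO, 264 on p53 KO and 193 on WT, and that of H2-DMb2 alone read 226, 177 and 241 on the same arrays. Over these 5 entries the median was 0.53 for DKO against WT, -0.03 for p53 KO against WT and, between both knockouts, 0.36 for DKO against p53 KO. No entry of the 5 reached 2-fold by its brightest probe set. A dimmer set shared by H2-DMb1 and H2-DMb2 did, at 1.26 for DKO against WT and at least 1.86 for DKO against p53 KO, as did the dimmer H2-DMa set for DKO against p53 KO. With only single-gene probe sets without a suffix, the median for p53 KO against WT was 0.45. Dimmer sets of H2-DMb2 alone were highest on p53 KO, with WT below the floor in each. These read 153 on DKO, 168 on p53 KO and 109 on WT, and 100, 206 and 106 on the same arrays. H2-DMb1 and H2-DMb2 are near copies, their probe sets disagreed in sign on p53 KO against WT, and no direction is given for them.

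H2-Ea and H2-Eb2 were near the floor. H2-Ea, the I-E alpha chain, which RefSeq lists as a transcribed pseudogene in its C57BL/6J assembly, read 84.4 on DKO, 76.3 on p53 KO and 192 on WT. A dimmer H2-Ea probe set ran the other way, at 119 on DKO, 110 on p53 KO and 17.7 on WT, so no direction is given for this gene. H2-Eb2 read 190 on DKO, 187 on p53 KO and 33.2 on WT, so it was higher on both knockout arrays by at least 0.78 and 0.76.

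In all, 1 of the 11 class II entries was called higher on p53 KO against WT, namely Cd74, and 0 lower, where 6.49% of all measured entries were called higher and 3.23% lower. Between DKO and WT no class II entry was called in either direction, with 5.17% of all entries higher and 3.06% lower. For DKO against p53 KO, 1 of 11 was called lower, again Cd74, and 0 higher, with 5.94% of all lower and 4.10% higher. These shares are near the background, and 3 of the 4 chains differed by less than 2-fold. The median over the 11 was 0.06 for DKO against WT, 0.47 for p53 KO against WT and, between both knockouts, 0.00 for DKO against p53 KO.

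Genes that process class II peptides included several that were higher on p53 KO. Of 14 genes on a list of class II peptide loading and turnover, 4 were called higher on p53 KO against WT and 0 lower, against 6.49% higher and 3.23% lower among all entries, with a median of 0.53. They were Ctss, the protease that trims the invariant chain (4474 on DKO, 15693 on p53 KO, 5218 on WT; 1.59), Ctsh (1.44), Ctsb (1.26) and the ubiquitin ligase Marchf1, which removes class II from the surface (1.10). The other 10 were not called. For DKO against p53 KO, 6 of the 14 were called lower and 0 higher (median -0.76), against 5.94% lower and 4.10% higher among all entries. Ctss was lower by -1.81. With only single-gene probe sets without a suffix, the list medians were 0.95 for p53 KO against WT and -1.55 for DKO set against p53 KO. For DKO against WT, 0 were called higher and Ctsl was called lower at -1.03 (median -0.21), where 5.17% of all entries were higher and 3.06% lower.

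Lists of B cell and of monocyte and macrophage markers also had their highest summed signal on p53 KO. Of 12 B cell markers on the array, 8 were called higher on p53 KO against WT and 0 lower, beside 6.49% and 3.23% of all entries, and their summed signal was 4694 on DKO, 10393 on p53 KO and 3826 on WT. Ms4a1, the B cell surface protein CD20, read 576 on DKO, 1581 on p53 KO and 339 on WT (p53 KO against WT 2.22). Of 13 monocyte and macrophage markers 11 were called higher and 0 lower, beside the same shares of all entries, with sums of 25687 on DKO, 61892 on p53 KO and 24339 on WT. Csf1r, the receptor for macrophage colony-stimulating factor, read 8826 on DKO, 15695 on p53 KO and 4841 on WT. Medians for p53 KO against WT were 1.36 for both lists, and for DKO against p53 KO they were -0.91 for B cell and -1.22 for monocyte and macrophage markers. Both lists thus stood highest on the same array as those 4 class II entries. For DKO against WT, where those entries had a median of 0.03, the B cell median was 0.39, with 11 markers above 0 and 1 below. The monocyte and macrophage median was 0.14 there, with 7 above 0 and 6 below. Neither list had a marker called for DKO against WT, where 5.17% of all entries were higher and 3.06% lower.

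Dendritic cell markers were mixed. Of 12 on the array 8 were measured, with sums of 6469 on DKO, 3333 on p53 KO and 3528 on WT, and Siglech, Ccr7, Batf3 and Cd7 were below the floor on all 3 arrays. For p53 KO against WT 2 were called higher, Itgax (1.96) and Clec10a (1.04), and 1 lower, Zbtb46 (-1.12), where 6.49% of all entries were higher and 3.23% lower. Flt3, which LSK progenitors also carry, gave 4728 on DKO, 1492 on p53 KO and 2387 on WT of these sums. No defining marker of the B cell or monocyte lists was below the floor on every array. The part of such cells in the class II values was not tested, and in a bulk sample fewer cells of a type and less RNA per cell cannot be told apart.

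**Figure D2:**
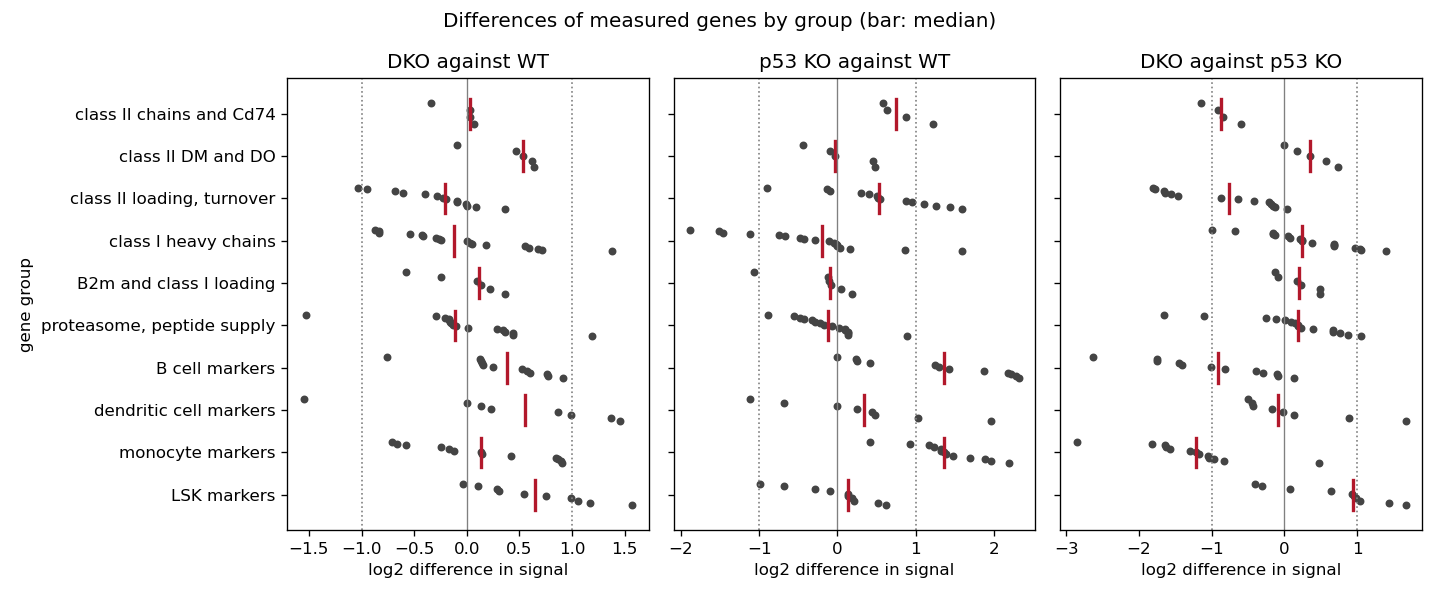
Log2 difference in signal of each measured gene (points) by group for DKO against WT, p53 KO against WT and DKO against p53 KO; bars are medians and dotted lines mark 2-fold. In the middle panel H2-Aa, H2-Ab1, H2-Eb1 and Cd74 (median 0.75) and class II loading genes (0.53) mostly lie to the right of 0 with B cell and monocyte markers (1.36 each), while class I heavy chains (-0.19) do not.

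Class I heavy chains had a median of -0.19 on p53 KO against WT over the 18 of 22 entries that were measured, and 4 were called lower and 1 higher, where 3.23% of all entries were lower and 6.49% higher. On DKO against WT the median was -0.12, with 0 called lower and 1 higher, where 3.06% of all entries were lower and 5.17% higher. On DKO against p53 KO it was 0.24, with 3 called higher and 0 lower, where 4.10% were higher and 5.94% lower. The calls against WT came from the Q region and from H2-Bl, a pseudogene in RefSeq, while H2-K1 and H2-D1 stayed under 2-fold by their brightest probe sets. Of class I heavy chain probe sets 37.8% are of the kind marked x_at, whose probes can bind related transcripts, as are 27.3% of class II probe sets, against 5.41% on the whole array. The signal of one heavy chain gene may therefore include its relatives.

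H2-K1, the classical K chain, had signals of 9576 on DKO, 8260 on p53 KO and 13922 on WT, lower on both knockout arrays by -0.54 and -0.75. All 4 of its probe sets were lower on p53 KO than on WT (-0.90 to -0.14), while 3 were lower and 1 higher on DKO. H2-D1, the classical D chain, had signals of 9601 on DKO, 10693 on p53 KO and 11505 on WT, or -0.26 and -0.11 against WT.

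The probe sets of H2-D1 disagreed widely. A bright probe set, singled out after its values were seen and called divergent here, read 8461 on DKO, 4951 on p53 KO and 636 on WT. That is 13.3-fold higher on DKO than on WT (3.73) and 7.79-fold higher on p53 KO than on WT (2.96), ranks 3 and 7 from the top of 26317 measured probe sets. In the same gene, another set read 1293 on DKO, 1458 on p53 KO and 2422 on WT, or -0.90 and -0.73 against WT. A further set read 1963 on DKO, 2500 on p53 KO and 3476 on WT, and the second brightest read 7807 on DKO, 9790 on p53 KO and 10460 on WT. These bright sets were lower on both knockout arrays, in the opposite direction to the divergent set. A dimmer pair was also highest on DKO and below the floor on WT, at 293 on DKO, 106 on p53 KO and 7.93 on WT, and at 221 on DKO, 144 on p53 KO and 45.0 on WT. The span between the highest and the lowest H2-D1 probe set was 4.64 for DKO against WT and 3.69 for p53 KO against WT. Among 926 entries with at least 4 measured probe sets, whose median spans were 0.82 and 0.70, none was wider than H2-D1 in either comparison, and both use the same WT array. Its span between DKO and p53 KO was 1.76, and 47 of the 926 were at least that wide. H2-K1, with 4 measured probe sets, had spans of 1.40, 0.76 and 0.90 for DKO against WT, p53 KO against WT and DKO against p53 KO. No single direction is therefore given for H2-D1. A probe set reads the transcript it matches, so a difference in allele between arrays could alter the signal of H2-D1, H2-K1 or a Q region gene without a change in its level. The H2 alleles on each array are unknown, and their part in these values was not tested.

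**Figure D3:**
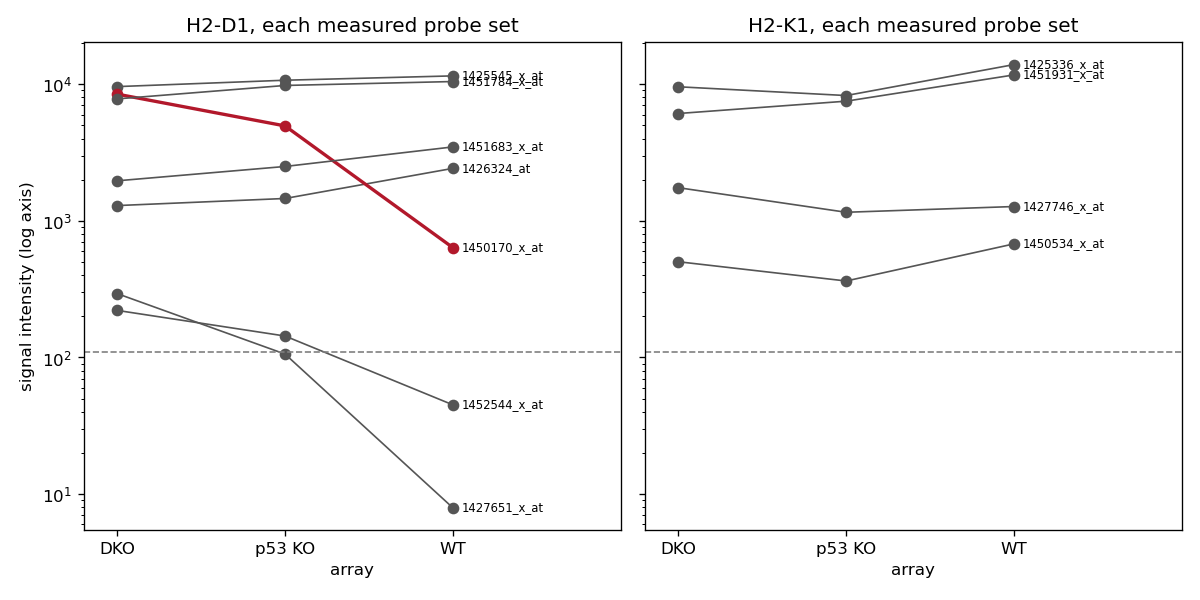
Signal (log axis) of each measured probe set of H2-D1 (left) and H2-K1 (right) on the DKO, p53 KO and WT arrays; lines join the readings of a probe set, and the dashed line is the floor. The red line, the divergent set, is at 8461, 4951 and 636, while 4 other H2-D1 probe sets are highest on WT.

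The Q region, whose genes encode non-classical heavy chains such as Qa-2 (H2-Q7 and H2-Q9), had 5 of 6 measured entries lower on p53 KO than on WT. The probe set shared by H2-Q9 and H2-Q7 had signals of 7059 on DKO, 3439 on p53 KO and 9458 on WT, or -0.42 for DKO against WT, -1.46 for p53 KO against WT and, between both knockouts, 1.04 for DKO against p53 KO. The set shared by H2-Q6 and H2-Q8 read 2251 on DKO, 1899 on p53 KO and 4113 on WT (-0.87, -1.12 and 0.25). Both were lowest on p53 KO and highest on WT. The set shared by H2-Q6, H2-Q8 and H2-Q4 read 176 on DKO, 61.6 on p53 KO and 315 on WT, which is lower on p53 KO against WT by at least -1.51. H2-Q5, listed by RefSeq as a pseudogene, read 234 on DKO, 113 on p53 KO and 416 on WT (-0.83, -1.88 and 1.05). H2-Q10, which encodes a secreted heavy chain made in liver, ran against these, at 414 on DKO, 828 on p53 KO and 274 on WT (0.59, 1.59 and -0.999). For p53 KO against WT, H2-Q5 was under 2-fold with the mean of its probe sets (-0.94), and H2-Q10 was with a floor raised to the 75th percentile (0.89). The shared set of H2-Q5 and H2-K1 read 296, 150 and 202 on the same arrays. Over the 6 measured Q entries, which share genes and sequence, the median was -0.63 for DKO against WT, -1.29 for p53 KO against WT and, between both knockouts, 0.82 for DKO against p53 KO.

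Other heavy chains lay outside the Q region. The probe set shared by H2-T23, which encodes Qa-1, and H2-T-ps read 7044 on DKO, 7730 on p53 KO and 9412 on WT, and that shared by H2-T9, H2-T22 and H2-T10 read 4214, 3246 and 5156. H2-M3, which presents formylated peptides, read 1249 on DKO, 1062 on p53 KO and 1477 on WT. By these sets all 3 were highest on WT, with differences from WT between -0.67 and -0.24. The dimmer probe set of H2-T9, H2-T22 and H2-T10 read 85.4 on DKO, 113 on p53 KO and 319 on WT, lower by at least -1.53 and by -1.50 against WT. With the mean of both sets that entry was at -1.08 for p53 KO against WT, past 2-fold. The dimmer probe set of H2-T23 and H2-T-ps ran the other way (0.58 and 0.44), and their direction is left unstated. The set shared by H2-K1 and H2-D1 read 2405 on DKO, 1505 on p53 KO and 1466 on WT, higher on DKO by 0.71. H2-Bl read 290 on DKO, 13.2 on p53 KO and 112 on WT, so it was called higher on DKO, by 1.38 against WT and by at least 1.39 against p53 KO. The remaining measured heavy chain entries, H2-T18, H2-T24, H2-T3, H2-T3/H2-T18 and H2-M10.1, had a highest signal of 284 on any array and none was called. H2-D4, H2-Q2, H2-M9, the set shared by Gm38417, H2-Q2 and H2-D1, and the regulator Ciita were below the floor on all 3 arrays.

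**Figure D4:**
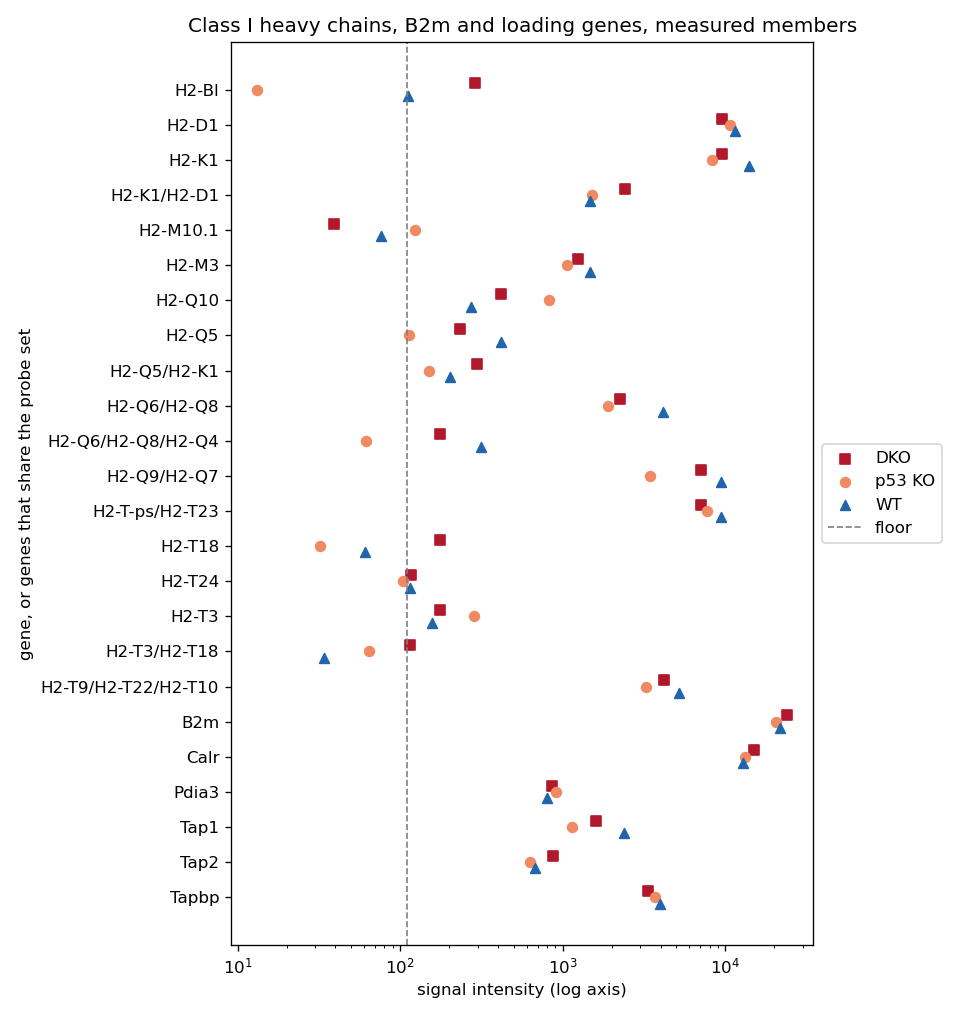
Signal intensity (log axis) of the measured class I heavy chain entries, B2m and the loading genes on the DKO (square), p53 KO (circle) and WT (triangle) arrays, with the floor of 110.4 dashed. For H2-Q9/H2-Q7, H2-Q6/H2-Q8 and Tap1 the p53 KO circle lies furthest left and the WT triangle furthest right, while the B2m symbols nearly coincide.

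B2m, the light chain common to class I molecules, had signals of 23924 on DKO, 20448 on p53 KO and 21744 on WT, within 0.14 of WT on both knockout arrays. Tap1, a subunit of the peptide transporter, read 1593 on DKO, 1141 on p53 KO and 2380 on WT (-0.58, -1.06 and 0.48), and was the 1 loading gene of 6 called lower on p53 KO against WT, where 3.23% of all entries were. With the mean of all its probe sets, most of them below the floor, that value was -0.27, under 2-fold. Its partner Tap2 read 875 on DKO, 626 on p53 KO and 679 on WT, so the subunits were not equally displaced. Tapbp, which encodes tapasin, read 3365 on DKO, 3696 on p53 KO and 3984 on WT. The chaperone Calr read 14965 on DKO, 13248 on p53 KO and 12844 on WT, and Pdia3 read 860 on DKO, 911 on p53 KO and 802 on WT. Apart from Tap1, the loading genes lay within 0.37 of WT on both knockout arrays by their brightest probe sets. Other sets were further off for DKO against WT, at 0.59 and 0.58 for Calr and at least 0.91 for Pdia3. Cd1d1, which presents lipids to NKT cells, read 4135 on DKO, 3605 on p53 KO and 3487 on WT (0.25 and 0.05 against WT).

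The immunoproteasome genes Psmb8 and Psmb9, given here because they lie next to Tap1 and Tap2 on chromosome 17, lay on the same side as Tap1 on p53 KO. Psmb9 read 1589 on DKO, 934 on p53 KO and 1736 on WT (p53 KO against WT -0.89), and Psmb8 read 2502, 1580 and 1849 (-0.23). In RefSeq's gene order, Psmb9, Tap1, Psmb8 and Tap2 stand between the class II genes H2-DMb2 and H2-Ob, with H2-Ab1, H2-Aa, H2-Eb1 and H2-Eb2 beyond. Neighbours in the complex therefore differed in sign. All 4 of these processing genes were lower on p53 KO than on WT, and the 4 class II genes after H2-Ob were higher. Of these, Tap2 (-0.12) and Psmb8 (-0.23) were close to WT, and H2-Eb2 (at least 0.76) is a bound with WT below the floor. H2-Ea, next in order, was lower by at least -0.80 by its brightest probe set, but its other probe sets were below the floor on both arrays and it is left without a direction. Of 16 genes on the wider list of immunoproteasome and peptide supply, 0 were called for p53 KO against WT (median -0.12), where 6.49% of all entries were higher and 3.23% lower. Of the 16, 9 lay below 0 and 7 above. Those below included Psme1 (-0.56) and Psmb10 (-0.33), which are not among the 4 processing genes above. For DKO against WT 1 was called higher, Mr1 (1.19), and 1 lower, the proteasome activator Psme3 (-1.52), beside 5.17% and 3.06% of all entries. For DKO against p53 KO, 1 was called higher, again Mr1 (1.05), and 2 lower, Psme3 (-1.66) and the oxidase Ero1a (-1.10), beside 4.10% and 5.94%. Mr1 read 257 on DKO, 124 on p53 KO and 113 on WT, near the floor on p53 KO and WT.

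**Figure D5:**
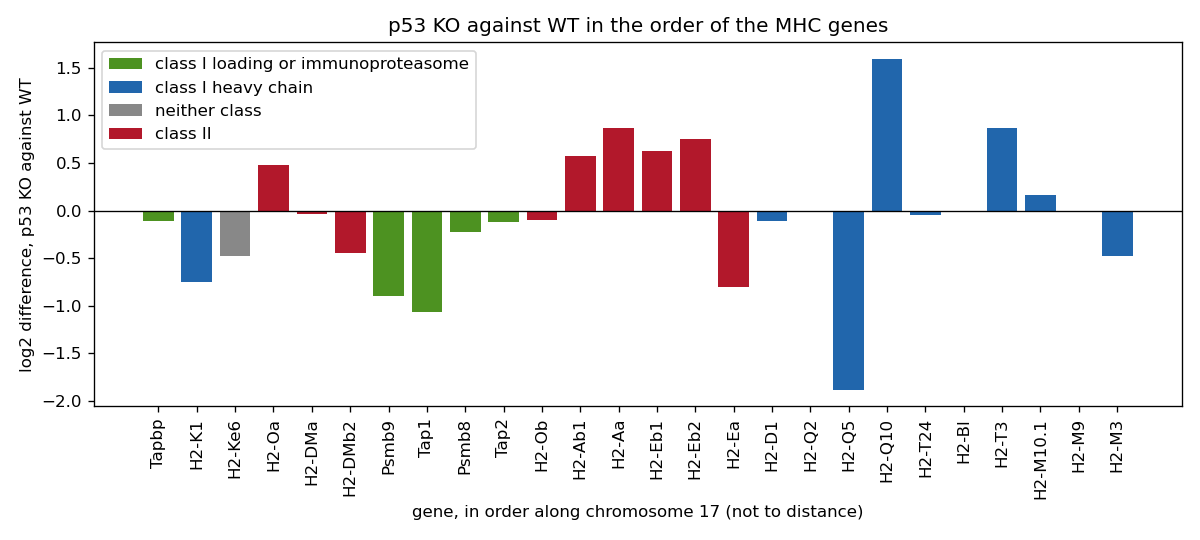
Log2 difference for p53 KO against WT of single-gene entries in their order along chromosome 17, coloured by class; spacing is not to distance. The bars from Psmb9 to Tap2 lie below 0, those from H2-Ab1 to H2-Eb2 lie above it, and H2-Q5 (-1.88) and H2-Q10 (1.59) are the longest.

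Among the regulators, Nlrc5, the class I activator, had signals of 1372 on DKO, 764 on p53 KO and 1400 on WT (-0.03, -0.87 and 0.85). DKO and WT were close, p53 KO was lower than both, and no difference was called. Ciita, the class II activator, read 98.0 on DKO, 66.7 on p53 KO and 59.7 on WT by its brightest probe set and was not measured, so these arrays give no difference for it. Rfx5 read 3316 on DKO, 2279 on p53 KO and 2285 on WT, higher on DKO by 0.54. Rfxap read 380 on DKO, 449 on p53 KO and 717 on WT (-0.92 and -0.68 against WT), and Rfxank read 181 on DKO, 241 on p53 KO and 286 on WT. None of the 4 measured regulators was called in any comparison with the deposited scaling. Rfxap for DKO against WT passed 2-fold after rescaling to a common median (-1.31), quantile normalization and cyclic loess (-1.03 each), while its dimmer probe set was at 0.07. H2-Ke6, a steroid dehydrogenase gene of the complex, read 860 on DKO, 444 on p53 KO and 617 on WT (0.48, -0.47 and 0.95).

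Of 18 measured genes on a list of other regulators of MHC transcription, 2 were called higher on p53 KO against WT and 0 lower. Among all entries 6.49% were higher and 3.23% lower. The 2 were Irf8, a factor of monocytes, dendritic cells and B cells (3816 on DKO, 4541 on p53 KO and 1798 on WT, or 1.34), and Irf4, by at least 1.63. For DKO against WT 2 were called higher and 0 lower, beside 5.17% and 3.06% of all entries. These were Spi1, which encodes PU.1 (1.18), and Irf8 (1.09). For DKO against p53 KO Irf4 alone was called, lower by at least -1.63, where 5.94% of all entries were lower and 4.10% higher. Medians of this list were 0.01, 0.22 and -0.13 for DKO against WT, p53 KO against WT and DKO against p53 KO. Of 8 measured costimulation genes, 1 was called, the adhesion molecule Icam1, higher on DKO against WT, where 5.17% of all entries were. It read 1046 on DKO, 614 on p53 KO and 386 on WT (1.44). Medians of the costimulation list were 0.47, 0.31 and 0.27, the last of which was -0.01 after rescaling to a common median, and Cd40 and Tnfsf9 were below the floor on all 3 arrays.

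Markers of other cells completed the setting. The 10 LSK markers on the array had sums of 42306 on DKO, 21812 on p53 KO and 25291 on WT. On DKO against WT 3 were called higher, where 5.17% of all entries were. On p53 KO against WT 0 were called, where 6.49% of all entries were higher and 3.23% lower. The median there was 0.13, with 6 above 0 and 4 below. Kit, which defines the LSK fraction, fell just short of a call (4873 on DKO, 2522 on p53 KO and 4996 on WT, or -0.99). On DKO against p53 KO 3 LSK markers were called higher and 0 lower (median 0.94), beside 4.10% and 5.94% of all entries. Of T cell markers 5 of 9 were measured, with sums of 1315 on DKO, 1230 on p53 KO and 1178 on WT, and Cd3e, Cd3g, Cd4 and Cd8b1 were below the floor on all arrays. Erythroid markers summed to 20901 on DKO, 88090 on p53 KO and 86196 on WT. Of these 8 markers 6 were called lower on DKO against WT, where 3.06% of all entries were. On p53 KO against WT 2 were called higher and 1 lower, beside 6.49% and 3.23% of all entries. On DKO against p53 KO 7 of the 8 were called lower and 0 higher (median -2.32), beside 5.94% and 4.10%. The part of these cells in the class I values was not tested.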

How the data were processed

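The deposited values are signal intensities from 3 arrays, made with GCOS and MAS5 per the submitters' processing notes, with no version stated; total RNA came from an RNeasy extraction and an Affymetrix one-cycle labelling kit, per the labels' protocols. Platform symbols were updated through the Entrez ID where RefSeq (GRCm38.p6, used for names, gene order and promoters) held it, as it did for 35686 probe sets. Of all probe sets 34958 had 1 symbol, 932 several and 9211 none. Probe sets that share only 1 H2 gene with genes of other names, 2 in number, were not members. Probe set levels are not compared between genes.

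Differences, counts and medians were computed in Python 3.11.15 with pandas 2.3.3, without any test, since there was 1 array per genotype. The procedure was tested on simulated data. Every value column was used. Alternatives were a common median, quantile normalization and cyclic loess with 3 iterations (limma 3.58.1, R 4.3.3), floors at the 25th or 75th percentile (34.4 or 448.4), a pseudocount of 32, the mean of all probe sets, single-gene probe sets without a suffix, and thresholds of 1.5-fold and 3-fold. Full values are given for members that reached the 75th percentile or differed 2-fold, and ranges for most others. Members, lists and settings were chosen with earlier results of these data known.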

Additional observations from a re-analysis of the deposited data

How the results depend on the processing

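With 1 array per genotype no array could be left out, and none of these differences was tested. Of the alternatives run, none turned the sign of a called member, while genes of the pathway and marker lists were not followed one by one. By setting, 9 of 48 class medians moved by more than 0.2 and 49 of 120 counts by more than 1.5 times, and 80 of 360 medians of lists and subgroups moved. The median of class II loading and turnover for DKO against p53 KO lay between -1.55 and -0.53, and that of costimulation between -0.01 and 0.77. Counts of 0 to 7 move easily by that rule. Rescaling to a common median gave class I medians of -0.63 for DKO against WT, with 0.00 for DKO against p53 KO and class II medians of -0.33 and -0.26, with 0 class I entries higher and 3 lower for DKO against WT, 1 higher and 1 lower for DKO against p53 KO, and 3 class II entries lower there. Quantile normalization gave 2 class I entries lower for DKO against WT and 1 lower for DKO against p53 KO; cyclic loess gave the same counts, with 0 higher for DKO against WT. A floor at the 25th percentile gave a class I median of -0.42 for p53 KO against WT, with 4 class I entries higher for DKO against WT, and 6 higher and 1 lower for DKO against p53 KO. It gave 1 class II entry higher and 1 lower for DKO against WT, and 2 higher and 1 lower for p53 KO against WT. A pseudocount of 32 gave the same counts except 5 class I entries higher for DKO against p53 KO and 0 class II lower for DKO against WT. A floor at the 75th percentile gave -0.48 for class I in p53 KO against WT and -0.60 for class II in DKO against p53 KO, with class I counts of 0 higher for DKO against WT, 0 higher and 2 lower for p53 KO against WT and 1 higher for DKO against p53 KO. The mean of all probe sets gave a class II median of 0.43 for DKO against WT, 2 class II entries higher for p53 KO against WT and 1 higher for DKO against p53 KO. Single-gene probe sets without a suffix gave 0.47 for class II in DKO against WT, 0 class I entries higher and 1 lower and 0 class II higher for p53 KO against WT, and 0 class II lower for DKO against p53 KO. At 1.5-fold, class I and class II had 4 and 3 higher and 3 and 1 lower for DKO against WT. For p53 KO against WT they had 2 and 4 higher, with 1 class II lower, and for DKO against p53 KO 7 and 1 higher and 2 and 4 lower. At 3-fold, class I had 0 higher for DKO against WT, 1 lower for p53 KO against WT and 0 higher for DKO against p53 KO, and class II had 0 called in any comparison. Shares of all entries were computed only with the main floor, scaling and threshold, so the counts under the alternatives have none beside them. The cause of each move was not tested beyond what the setting itself changes. No paired analysis was possible because each genotype has 1 array.

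Cd74, H2-Aa, H2-Ab1 and H2-Eb1 were higher for p53 KO against WT, and H2-Q9/H2-Q7, H2-Q6/H2-Q8 and H2-Q5 lower, in every alternative that gave them a value. The sign for DKO against WT changed among settings for Cd74, H2-Aa and H2-Eb1, and that of B2m in every comparison. The divergent probe set of H2-D1 stayed between 3.34 and 3.80 for DKO against WT and between 2.86 and 3.03 for p53 KO against WT over 7 settings. Signals near the floor give bounds only.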

Other observations

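The 2 probe sets that name an H2 gene beside genes of other names stayed near the floor. That of Gm20506 and H2-Ob read 79.9 on DKO, 93.2 on p53 KO and 129 on WT. That of Gm38417, LOC547349 and H2-Bl read 87.4 on DKO, 86.9 on p53 KO and 55.7 on WT.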
